A study of Mus musculus with 2 samples.

Results

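The muscle splicing regulators described here are 10 genes, chosen by symbol from 43346 genes in the files: *Mbnl1*, *Mbnl2*, *Mbnl3*, *Celf1*, *Celf2*, *Rbfox1*, *Rbfox2*, *Rbm20*, *Rbm24* and *Ptbp1*. All 10 had a row, and together they had 103 transcripts. RNA was measured in skeletal muscle of B6NCrl mouse pups on postnatal day 0, in 2 libraries of 13 pg of total RNA each, about the RNA of 1 cell. Each library came from a portion of tissue of 1 pup, and the labels give both pups the same donor entry, no treatment and no sex. The libraries are biological replicates 1 and 2 of 1 group, so there is no comparison between conditions and no test. Differences between animals, tissue portions and libraries cannot be told apart, and fewer cells of a type cannot be told apart from less RNA per cell.

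Vertebrate muscle changes the exons it uses around birth. Muscleblind-like proteins (Mbnl) bind YGCY motifs in RNA and favour adult exon choices, while CELF proteins bind GU-rich RNA and favour fetal ones. Rbfox proteins bind UGCAUG. Rbm20 and Rbm24 act on transcripts of the sarcomere, the contractile unit of the muscle fibre. Ptbp1 binds pyrimidine-rich RNA and represses many tissue-specific exons. Several of these proteins also regulate the exons of their own genes.

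Levels are given in TPM, a unit that adjusts for transcript length and sums to one fixed total per library, beside expected counts, the estimated reads. Detection in a library means 1 TPM or more and 5 or more expected counts. The libraries held 32103374 and 38977618 expected counts, with 6350 and 6949 genes detected, and 9.44% and 4.54% of their TPM lay on spike-in RNAs. All 5 muscle fibre markers were detected in both libraries, with a summed level of 102739 TPM in replicate 1 and 99320 TPM in replicate 2. Of 10 neuronal and epithelial genes none was detected, with summed levels of 1.31 and 0.21 TPM, and of 3 heart genes none was detected. The summed level of 4 fibroblast markers was 5522 TPM in replicate 1 and 3025 TPM in replicate 2. That of 4 endothelial markers was 442 and 145 TPM. All 4 were higher in replicate 1, *Pecam1* at 181.83 and 0.06 TPM and *Egfl7* at 209.49 and 139.70 TPM. Of 4 myoblast markers 2 were detected in both, *Myog* at 200.62 and 264.39 TPM and *Myod1* at 2.31 and 17.21 TPM. *Myf5* had 14.05 and 0 TPM, and *Pax7* had 0 and 0.77 TPM. The 4 summed to 217 and 282 TPM, most of it on *Myog*. Sums were 444 and 187 TPM for 3 macrophage markers, and 1564 and 1725 TPM for 2 erythroid markers.

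Of the 10 regulators, 7 were detected in replicate 1, all 10 in replicate 2 and 7 in both. By the same rule 10% of all genes were detected in both libraries and 20.6% in at least 1, so that 48.7% of the genes seen in at least 1 were seen in both. Among the 7219 genes whose higher library lay within the range of the regulators' higher values, 3 to 175.22 TPM, 46.1% were seen in both. The 3 regulators not detected in both were *Mbnl3*, *Celf1* and *Rbm20*. The regulators' summed level was 420.61 TPM in replicate 1 and 321.82 TPM in replicate 2 (mean 371 ± 69.9, SD, n = 2).

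Single regulators differed widely between the libraries. The higher value was at least 2-fold above the lower one for 9 of the 10, with *Mbnl1* the exception, beside 77.1% of genes in the same range of levels and 73.5% of all genes detected in at least 1 library. The median absolute difference between libraries was 2.24 on the log2(TPM + 1) scale for the regulators and 2.94 for the genes in that range. Replicate 1 was higher for *Mbnl1*, *Celf2*, *Rbfox1* and *Ptbp1*, which is 4 of 10, beside 48.0% of genes in that range. Reads are not separate molecules here, because the libraries carry no molecular identifiers, so intervals and limits cover counting error only.

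**Figure D1:**
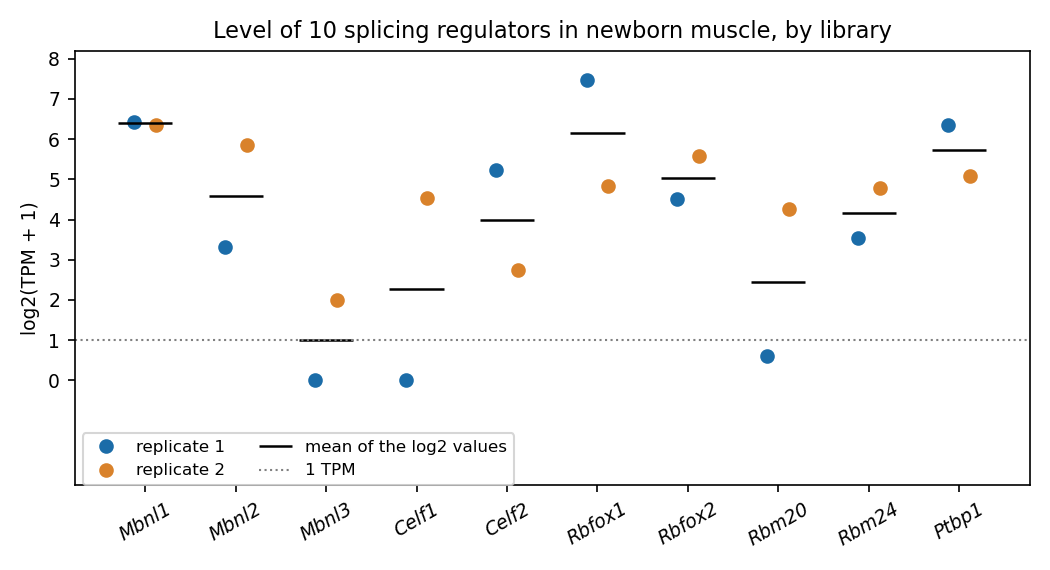
Level of each regulator on the log2(TPM + 1) scale, with one point per library and a bar at the mean of both log2 values. The pair of points nearly coincides for *Mbnl1*, at 85.77 and 81.21 TPM, and lies far apart for *Celf1*, at 0.01 and 22.36 TPM.

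**Figure D2:**
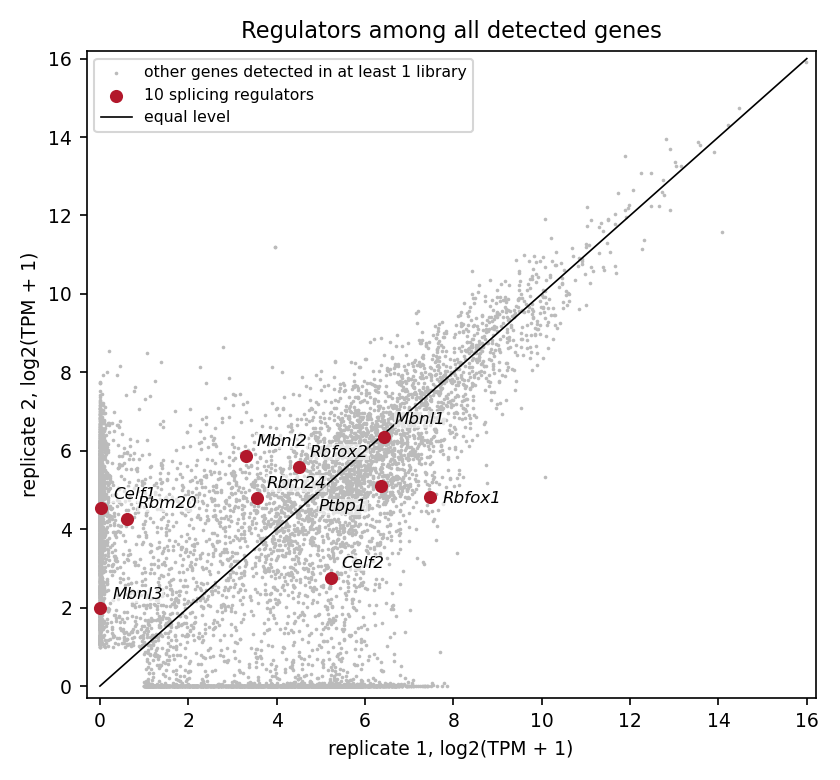
Level in replicate 2 against level in replicate 1, both as log2(TPM + 1), for the 10 regulators (red) and the other genes detected in at least 1 library (grey). *Mbnl3* and *Celf1* lie on or beside the left edge with the genes seen only in replicate 2, and *Mbnl1* lies on the line of equal level.

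Muscleblind genes. *Mbnl1*, the main family member of skeletal muscle, whose loss of function through binding to expanded CUG repeats is a feature of myotonic dystrophy in humans, had the smallest fold between libraries of the 10 regulators in TPM. The gene lies at chr3:60472830-60629750 on the plus strand (GRCm38, as all positions below). It had 85.77 TPM from 8335 expected counts in replicate 1 and 81.21 TPM from 6436 expected counts in replicate 2, a mean of 83.5 ± 3.22 TPM (SD, n = 2). The deposited credible intervals, 82.1 to 87.8 TPM and 76.9 to 84.9 TPM, overlapped. As reads per total of gene reads *Mbnl1* was 1.62-fold higher in replicate 1, and its coding transcripts summed to 81.03 TPM in replicate 1 and 29.01 TPM in replicate 2, so the closeness holds for the gene's TPM only. Its mean was above that of 68.4% of the genes detected in both libraries.

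*Mbnl2* (chr14:120275669-120431697, plus strand), which acts beside *Mbnl1* and is prominent in brain, had 8.97 TPM from 963 expected counts in replicate 1 and 57.10 TPM from 7896 expected counts in replicate 2. Replicate 2 was 6.37-fold higher, and the mean of 33.0 TPM was below its own SD of 34 TPM (n = 2). *Mbnl3* (chrX:51117269-51206532, minus strand), which in mouse is linked to undifferentiated muscle cells and restrains differentiation, had 0 expected counts in replicate 1 and 426 in replicate 2, or 3 TPM. A count of 0 allows up to 3 counts, here 0.0270 TPM. The deposited credible interval reached higher, 0.0526 to 0.620 TPM in replicate 1, beside 2.81 to 3.56 TPM in replicate 2, so no fold is given.

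As a share of the summed TPM of the 3 genes, *Mbnl1* took 90.5% in replicate 1 and 57.5% in replicate 2. *Mbnl2* took 9.47% and 40.4%, and *Mbnl3* took 0% and 2.12%. By gene TPM *Mbnl1* was thus first, *Mbnl2* next and *Mbnl3* last in both libraries, while the shares themselves differed between them. In replicate 2 the order of the first 2 turned with the unit. There *Mbnl2* had 7896 expected counts beside 6436 for *Mbnl1*, and 57.10 TPM on coding transcripts beside 29.01 TPM. On the log2(TPM + 1) scale *Mbnl1* exceeded *Mbnl2* by 3.12 in replicate 1 and by 0.50 in replicate 2. *Mbnl2* exceeded *Mbnl3* by 3.86 in replicate 2. In replicate 1, where *Mbnl3* had 0 counts, the value of 3.32 is set by the pseudocount of 1 and is no measured ratio.

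The Mbnl genes share short alternative coding exons. An exon of 54 bases, which in *Mbnl1* favours a nuclear protein, and an exon of 36 bases near the end of the coding sequence are shown because the *Mbnl1* transcripts found in these libraries differ in them. Sequences were read from the GENCODE M21 transcripts. In the 54-base exon capitals in *Mbnl2* mark the bases that differ from *Mbnl1*, and 46 of 54 bases (85.2%) were identical. The exon lies at chr3:60614683-60614736 in *Mbnl1* and at chr14:120395712-120395765 in *Mbnl2*, both on the plus strand.
Mbnl1 54-base exon: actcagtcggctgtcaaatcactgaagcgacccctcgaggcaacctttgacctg
Mbnl2 54-base exon: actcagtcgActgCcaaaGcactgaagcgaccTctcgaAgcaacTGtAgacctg

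The 36-base exon lies at chr3:60621423-60621458 (plus strand) in *Mbnl1*, chr14:120403336-120403371 (plus strand) in *Mbnl2* and chrX:51126126-51126161 (minus strand) in *Mbnl3*. Against *Mbnl1*, 31 of 36 bases (86.1%) were identical in *Mbnl2* and 26 of 36 (72.2%) in *Mbnl3*. Capitals mark TGCATG, the DNA letters of the Rbfox motif, which was looked for after the sequences had been seen.
Mbnl1 36-base exon: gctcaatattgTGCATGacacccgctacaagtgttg
Mbnl2 36-base exon: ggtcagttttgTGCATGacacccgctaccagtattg
Mbnl3 36-base exon: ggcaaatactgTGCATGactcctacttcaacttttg
The motif starts at base 12 in all 3, counted from the exon's first base. Among all 536 internal exons of 36 bases in GENCODE M21, 6 (1.12%) hold TGCATG on the transcript strand and 0 hold its reverse complement CATGCA, and these 3 related exons are among the 6. A match is a description of letters and not a site of binding.

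*Mbnl1* had 25 transcripts in the files, of which 7 were above 0 in replicate 1, 6 in replicate 2 and 1 in both. The shared one, the coding Mbnl1-214, which holds the 54-base exon and skips the 36-base one, had 35.76 TPM in replicate 1 and 13.82 TPM in replicate 2. Replicate 1 also had Mbnl1-203 at 34.61 TPM and replicate 2 had Mbnl1-201 at 15.19 TPM, and both of these coding transcripts hold the 36-base exon and skip the 54-base one. In replicate 2 the largest share, 55.0% or 44.63 TPM, was assigned to Mbnl1-212, a processed transcript of 1019 bases that skips both exons and had 0 TPM in replicate 1. Transcripts annotated as protein coding made up 94.5% of the gene's TPM in replicate 1 and 35.7% in replicate 2. TPM weights short transcripts up, and as a share of expected counts the coding transcripts held 99.1% and 74.9%, with Mbnl1-201 leading in replicate 2 at 40.97%.

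Over all transcripts, the share of *Mbnl1* TPM with the 54-base exon was 51.8% in replicate 1 and 17.0% in replicate 2 (mean 34.4 ± 24.6%, SD, n = 2). The transcripts that skip it in replicate 2 include the processed Mbnl1-212 and Mbnl1-202, at 44.63 and 7.54 TPM. Over coding transcripts alone the share was 51.8% and 47.6% (49.7 ± 2.96%). The 36-base exon was in 48.2% and 18.7% over all transcripts, and in 48.2% and 52.4% (50.3 ± 2.96%) over coding transcripts, where transcripts with 1 of these exons skipped the other. In TPM the classed coding *Mbnl1* RNA was therefore divided between both forms at close to equal parts in both libraries. The coding Mbnl1-221, at 9.19 TPM in replicate 1, was in neither class. The form with the 36-base exon was Mbnl1-203 in replicate 1 and Mbnl1-201 in replicate 2. By expected counts Mbnl1-214 had 4408.83 beside 3333.43 for Mbnl1-203 in replicate 1. In replicate 2 Mbnl1-214 had 2181.63 beside 2636.68 for Mbnl1-201, so the larger form differed. The transcripts that could be classed held 83.8% of the gene's TPM in replicate 1 and 99.96% in replicate 2.

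For *Mbnl2*, Mbnl2-202 accounted for 100% in replicate 1 and 51.7% in replicate 2, where Mbnl2-201 took the rest. Both hold the 54-base exon in GENCODE M21, but only Mbnl2-201, of 4552 bases, has the same length in the files. No share was therefore computed. The deposited length of Mbnl2-202, 4498 bases, is 36 bases below its length in GENCODE M21. It is therefore not known whether the deposited form held the 54-base exon or the 36-base exon. *Mbnl3* had 1 transcript above 0, Mbnl3-202 in replicate 2, which skips the 36-base exon.

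CELF genes. *Celf1* (chr2:90940382-91019497, plus strand), also known as CUGBP1, was close to 0 in one library and detected in the other. It had 1 expected count or 0.01 TPM in replicate 1 and 2173 expected counts or 22.36 TPM in replicate 2. Per total of gene reads the count in replicate 2 was 1740 times that in replicate 1. The exact binomial 95% interval, 312 to 68762, rests on 1 read in replicate 1 and covers counting error only. The deposited credible intervals were 0.226 to 1.46 TPM in replicate 1 and 19.3 to 25.9 TPM in replicate 2. The value of 0.01 TPM lies below the first of these, and both together allow a far smaller fold, so no fold is concluded.

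*Celf2* (chr2:6539694-7509563, minus strand), the paralogue that shares many of its targets, was the higher one in replicate 1. It had 36.48 TPM from 4429 expected counts in replicate 1 and 5.76 TPM from 675 expected counts in replicate 2, 6.33-fold higher in replicate 1. The value of 5.76 TPM lies below its deposited credible interval of 5.83 to 7.41 TPM, so the fold may be smaller. A lincRNA gene on the other strand that overlaps its exons, *Gm26565*, had 0 and 423 expected counts, and without a stated strand setting reads of such a pair may not be separable. *Celf2* was 99.9% of the summed CELF TPM in replicate 1 and 20.5% in replicate 2, where *Celf1* was 79.5%. The log2 ratio of *Celf1* to *Celf2* was −5.21 in replicate 1 and 1.79 in replicate 2, so the libraries give opposite orders. *Celf3* and *Celf6* had 0 expected counts in both libraries, *Celf4* had 2 and 0, and *Celf5* had 0 and 1. The combined level of *Celf1* and *Celf2* was closer, at 36.49 TPM in replicate 1 and 28.12 TPM in replicate 2.

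*Celf1* had 14 transcripts. Its single read in replicate 1 was assigned to the coding Celf1-204, and none of its transcripts was above 0 in both libraries. In replicate 2 the largest share, 42.1%, was on Celf1-213, a processed transcript, and coding transcripts held 42.7%. By expected counts the coding Celf1-203 led in replicate 2 with 46.3%, and coding transcripts held 93.0%. *Celf2* had 28 transcripts, of which 6 and 4 were above 0 in replicates 1 and 2, and 2 in both. Celf2-202 led in replicate 1 with 38.4% and had 0 TPM in replicate 2. Celf2-226 led in replicate 2 with 50% and had 0 TPM in replicate 1. Celf2-206 was present in both, with 9.57 TPM in replicate 1 and 1.29 TPM in replicate 2.

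The opposed families were compared as log2 ratios. *Mbnl1* exceeded *Celf1* by 6.42 in replicate 1 and by 1.82 in replicate 2, a mean of 4.12 ± 3.26 (SD, n = 2), which has one sign but a mean below 2 SD. For *Mbnl2* over *Celf2* the values were −1.91 and 3.10. The summed Mbnl genes, at 94.74 TPM in replicate 1 and 141.31 TPM in replicate 2, exceeded summed *Celf1* and *Celf2* by 1.35 and 2.29, a mean of 1.82 ± 0.66. This exceeds the spread in the sense used here, one sign in both libraries and a mean above 2 SD. Of 10 ratios computed in TPM + 1, 7 had the same sign in both libraries. Among these, *Mbnl1* over *Mbnl2* was positive in replicate 2 by TPM but not by expected counts, which were 6436 and 7896. The rule above was met by 2 of the 10, the other being *Mbnl2* to *Mbnl3*, where the pseudocount sets the value in replicate 1. Ratios with *Celf1*, which had 1 expected count in replicate 1, rest on the pseudocount there too.

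**Figure D3:**
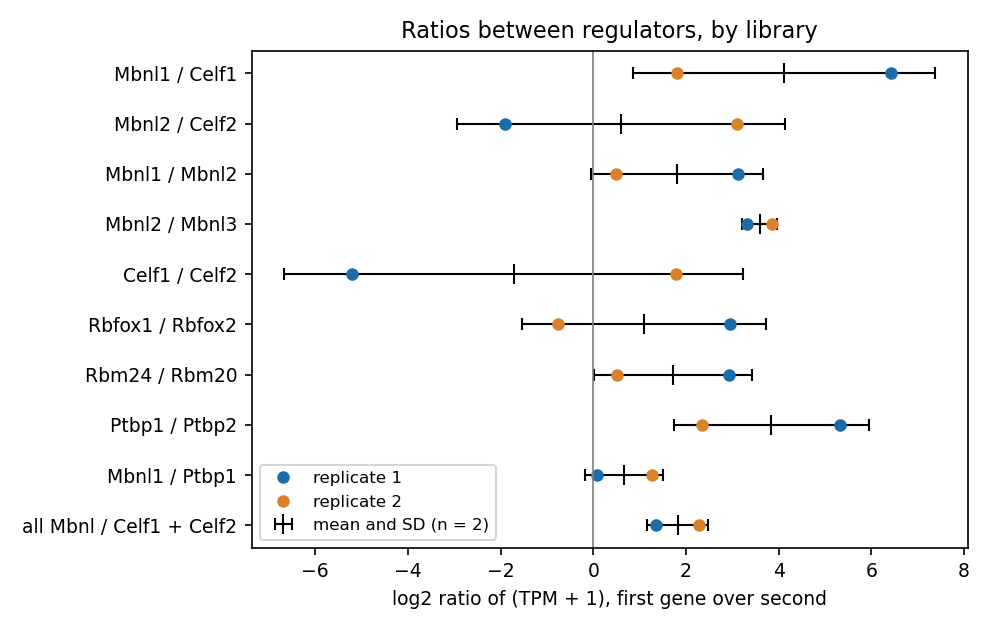
Log2 ratio of TPM + 1 for 10 pairs of regulators in each library, with a line at 0 for equal levels. The ratio changes sign between libraries for *Mbnl2* over *Celf2*, *Celf1* over *Celf2* and *Rbfox1* over *Rbfox2*. For *Mbnl2* over *Mbnl3* the value of 3.32 in replicate 1 is set by the pseudocount of 1, since *Mbnl3* had 0 counts there.

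Rbfox genes. *Rbfox1* (chr16:5885355-7411526, plus strand), found mainly in neurons, heart and skeletal muscle, had the highest single value of the 10 regulators. It had 175.22 TPM from 8153 expected counts in replicate 1 and 27.37 TPM from 1362 expected counts in replicate 2, 6.40-fold higher in replicate 1. *Rbfox2* (chr15:77078990-77307004, minus strand), found in most tissues, had 21.66 TPM from 3505 expected counts in replicate 1 and 47.01 TPM from 9606 expected counts in replicate 2, 2.17-fold higher in replicate 2. *Rbfox1* was 89.0% of the family's TPM in replicate 1 and 36.8% in replicate 2. The log2 ratio of *Rbfox1* to *Rbfox2* averaged 1.10 ± 2.63 (SD, n = 2) in TPM + 1 and −0.80 from expected counts, so even the sign of its mean turns with the unit. *Rbfox3*, the neuronal paralogue known as NeuN, had 1 expected count in each library, and the 10 neuronal and epithelial genes summed to at most 1.31 TPM in a library.

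In TPM, *Rbfox1* and *Rbfox2* had the same leading transcript in both libraries. Rbfox1-202 accounted for 71.8% of *Rbfox1* in replicate 1 and 82.7% in replicate 2, at 125.86 and 22.64 TPM. By expected counts the longer Rbfox1-201 led in replicate 1 with 58.9% and Rbfox1-202 in replicate 2 with 56.7%, so this lead turns with the unit. Rbfox2-202 held 60.0% and 74.7% of *Rbfox2* TPM, at 12.99 and 35.14 TPM. The Rbfox genes carry a pair of neighbouring exons of 40 and 43 bases, of which the 40-base one is typical of brain and the 43-base one of muscle. The 40-base exon is shown because Rbfox1-202 holds it. In GENCODE M21 Rbfox1-201 holds it too, but its deposited length differs, so the exon is not known to set the 2 apart. It lies at chr16:7363865-7363904 (plus strand) in *Rbfox1* and chr15:77094451-77094490 (minus strand) in *Rbfox2*. Capitals in *Rbfox2* mark the bases that differ, and 34 of 40 bases (85.0%) were identical.
Rbfox1 40-base exon: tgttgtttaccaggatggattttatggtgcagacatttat
Rbfox2 40-base exon: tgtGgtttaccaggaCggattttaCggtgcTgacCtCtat

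No share of either exon could be computed. The GENCODE M21 transcripts with the 43-base exon, 2 in each gene, have no row in the files, so reads on that exon had no transcript of their own here. The presence of Rbfox1-202 in muscle is therefore no measure of the brain-type exon against the muscle-type one.

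RNA-binding motif genes. *Rbm20* (chr19:53677306-53867080, plus strand), which controls the splicing of titin and whose loss gives long titin forms, had 0.53 TPM from 36 expected counts in replicate 1 and 18.25 TPM from 3702 expected counts in replicate 2. It was thus below the detection limit in replicate 1, with a deposited credible interval of 0.361 to 0.902 TPM. *Rbm24* (chr13:46418434-46431095, plus strand), which is needed for muscle exon use in heart and skeletal muscle, had 10.68 TPM from 812 expected counts in replicate 1 and 26.58 TPM from 2588 expected counts in replicate 2, 2.49-fold higher in replicate 2. *Rbm38*, the close paralogue of *Rbm24*, stood above both, with 132.18 and 60.28 TPM, or 92.2% and 57.4% of the summed TPM of the 3 genes.

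The *Rbm20* reads also fell on different transcripts. In replicate 1, 26 of the 36 expected counts were on a transcript with no entry in GENCODE M21 and 10 on Rbm20-201, annotated as a target of nonsense-mediated decay. In replicate 2 all 3702 were on Rbm20-203. *Rbm24* has 1 transcript in the files. The titin gene *Ttn*, the best known target of *Rbm20*, had 714.68 TPM in replicate 1 and 958.71 TPM in replicate 2.

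*Ptbp1* (chr10:79854427-79864771, plus strand), whose level declines as myoblasts differentiate, had 81.29 TPM from 5545.3 expected counts in replicate 1 and 33.18 TPM from 2526 expected counts in replicate 2, 2.45-fold higher in replicate 1. Its share of the summed TPM of the Ptbp genes was even, at 85.1% and 81.7% (83.4 ± 2.40%, SD, n = 2). *Ptbp2*, the neuronal paralogue, had 1.04 TPM in replicate 1 and 5.68 TPM in replicate 2. *Ptbp3* had 13.22 and 1.76 TPM. The genes *E130317F20Rik*, *Plppr3* and *Gm17134* share exonic positions with *Ptbp1* on the other strand and had at most 78 expected counts in a library, and whether strand was used in counting is not given in the sources used here.

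*Ptbp1* limits its own level through an exon of 34 bases (chr10:79862014-79862047, plus strand). Skipping it shifts the reading frame and sends the RNA to nonsense-mediated decay.
Ptbp1 34-base exon: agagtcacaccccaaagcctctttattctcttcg
The share of transcript TPM with this exon was 100% in both libraries, since both transcripts that skip it were at 0 TPM. RNA sent to decay may be missing from the libraries, so this share is no measure of how often the exon is skipped. The transcripts that could be classed held 95.6% of the gene's TPM in replicate 1 and 52.9% in replicate 2. In replicate 2, 45.8% of the TPM was on Ptbp1-213, annotated with a retained intron, which had 0 TPM in replicate 1. Ptbp1-216 led in replicate 1 with 45.6% and had 0 TPM in replicate 2. By expected counts Ptbp1-206 led in replicate 2 with 42.3%, and coding transcripts held 62.3% there. The coding transcripts Ptbp1-206, at 22.60 and 11.13 TPM, and Ptbp1-202, at 18.06 and 6.42 TPM, were present in both.

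**Figure D4:**
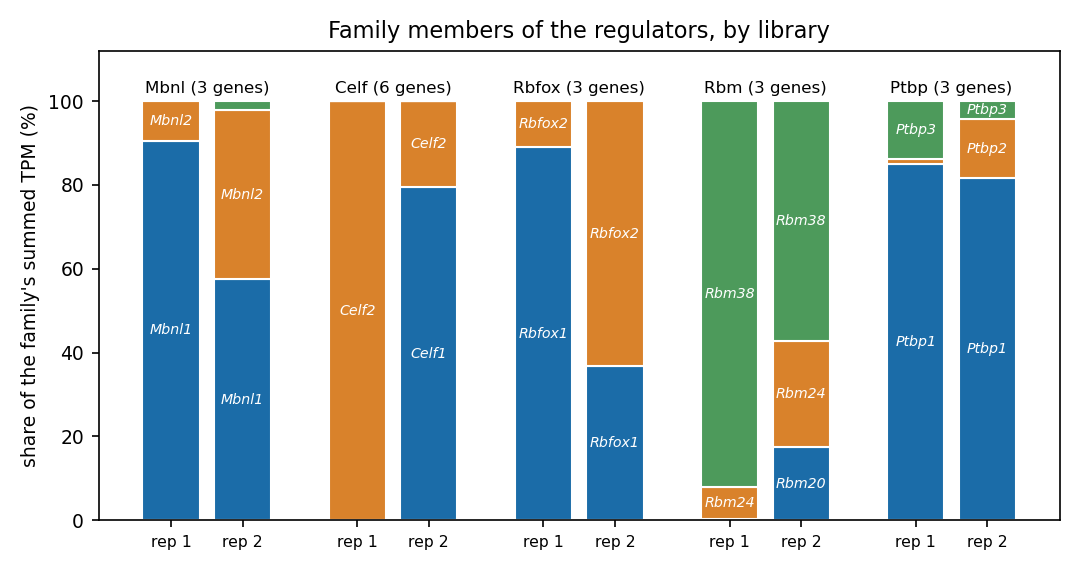
Share of summed TPM (percent) taken by each gene of the Mbnl, CELF, Rbfox, Rbm and Ptbp groups, with one bar per library. *Ptbp1* takes a like share in both, at 85.1% and 81.7%, while *Celf1* takes 0.03% in replicate 1 and 79.5% in replicate 2.

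Over all 10 regulators, 47 of the 103 transcripts were above 0 TPM in at least 1 library and 12 in both, beside 37.0% in both among all gene transcripts above 0 in at least 1. Of the 6 regulators detected in both libraries that have more than 1 transcript, 3 had the same leading transcript by TPM in both, *Mbnl2*, *Rbfox1* and *Rbfox2*, beside 65.6% of all such genes. By expected counts 2 did, *Mbnl2* and *Rbfox2*. Transcript levels are estimates that divide reads on shared exons among annotated forms. The deposited credible intervals of transcripts such as Mbnl1-203 (30.2 to 36.9 TPM in replicate 1, at most 0.360 TPM in replicate 2) did not overlap between the libraries.

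**Figure D5:**
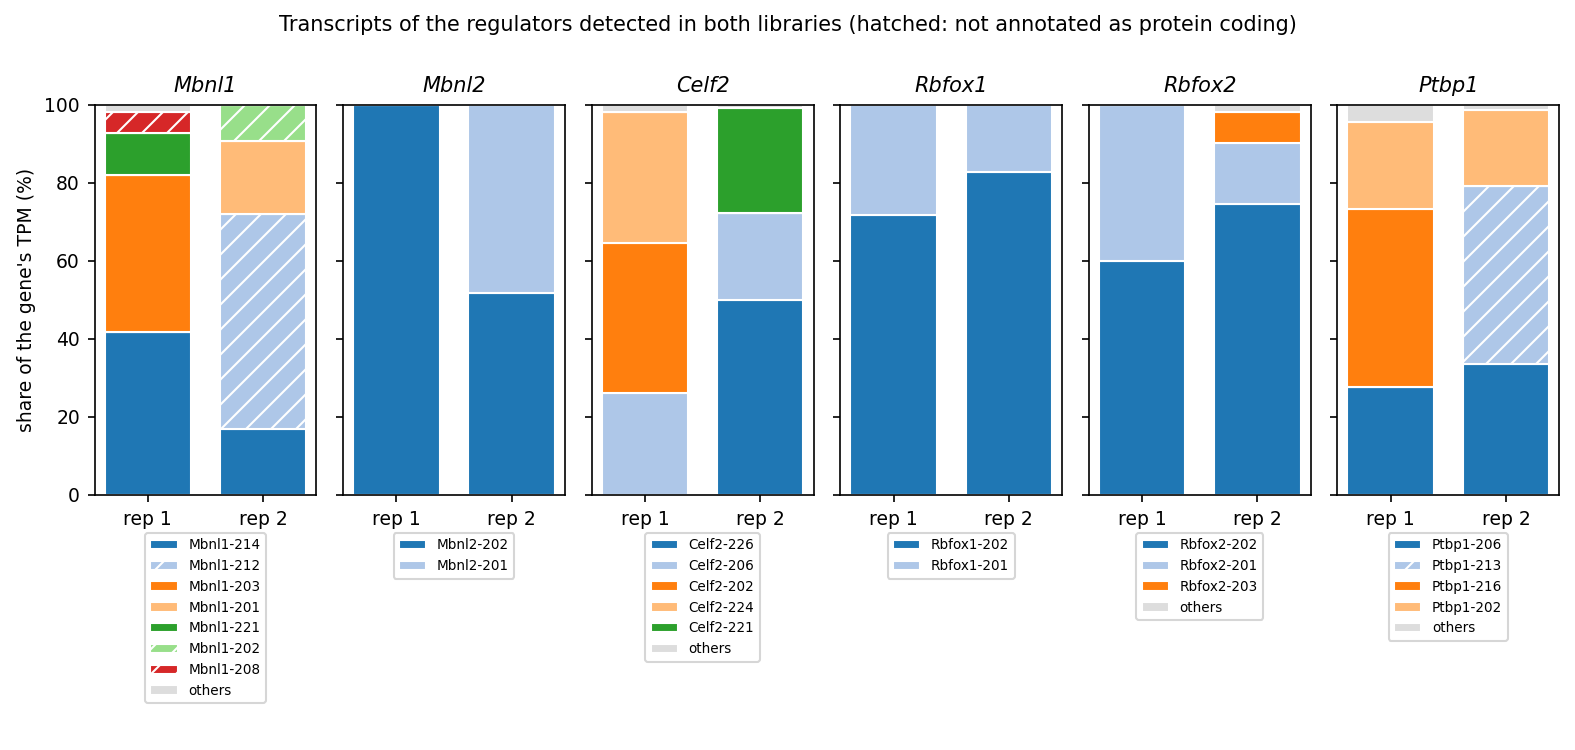
Share of each gene's TPM (percent) by transcript in replicates 1 and 2, for the 6 regulators detected in both libraries with more than 1 transcript; hatching marks transcripts not annotated as protein coding. *Mbnl1* and *Ptbp1* hold a large hatched share in replicate 2, on Mbnl1-212 (55.0%) and Ptbp1-213 (45.8%).

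General splicing factors, such as hnRNP and SR proteins, are given for comparison of levels. Of 46 listed, 35 (76.1%) were detected in both libraries, with a median level of 55.9 TPM and a median 1.63-fold distance between libraries, and 10 of the 35 were at least 2-fold apart. Among genes seen in at least 1 library with a higher value in this list's range, 2 to 943.07 TPM, 50% were detected in both, and 47.9% of those were at least 2-fold apart. *Hnrnpk* was high in both, at 943.07 TPM in replicate 1 and 552.21 TPM in replicate 2. *Hnrnpl* had 74.76 and 74.08 TPM and *Qk*, a regulator of muscle and glial exons, had 33.97 and 31.87 TPM. *Srpk3*, a kinase of splicing factors with high levels in muscle, had 100.24 and 122.14 TPM. *Hnrnph1*, at 6.07 and 160.47 TPM, and *Tardbp*, at 166.15 and 21.21 TPM, were among those far apart. *U2af1*, a subunit of the factor that reads the 3′ splice site, had 0 TPM in replicate 1 and 132.67 TPM in replicate 2. Of 11 paralogues of the regulators and their partners, 4 (36.4%) were detected in both, beside 10% of all genes. These were *Ptbp2*, *Ptbp3*, *Rbm38* and *Matr3*. The other 7 were detected in neither library, among them *Raver2* with 0 and 60 expected counts.

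Genes that carry exons under the control of these proteins include those of the sarcomere and of calcium handling. Of 28 such genes 24 (85.7%) were detected in both, with a median of 232 TPM, and 22 were higher in replicate 2. The background was the 8105 genes seen in at least 1 library with a higher value in this list's range, 3.17 to 13145 TPM. Of these 52.3% were detected in both and 52.2% were higher in replicate 2. As with the ranges used above, only the lowest and highest values were matched, and not the levels between them. *Tnnt3*, fast troponin T, had 7673.64 TPM in replicate 1 and 13145 TPM in replicate 2. *Bin1*, which shapes the T-tubule membrane, had 281.26 and 289.96 TPM. *Clcn1*, the muscle chloride channel whose missplicing gives myotonia, had 0 TPM in replicate 1 and 15.42 TPM in replicate 2.

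An exon share could be computed in 2 of these genes. *Atp2a1*, the fast calcium pump SERCA1, has an exon of 42 bases (chr7:126446545-126446586, minus strand) that is included more in adult than in newborn muscle and needs *Mbnl1*. Transcripts with it held 59.3% in replicate 1 and 54.4% in replicate 2 (56.8 ± 3.46%, SD, n = 2), and over 99.8% of the gene's TPM could be classed. In *Cacna1s*, the voltage sensor of excitation and contraction, the exon of 57 bases was in 71.3% and 100% (85.6 ± 20.3%), but only 40.0% and 59.1% of the gene's TPM could be classed.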

How the data were processed

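Both libraries were described by their deposited tables of genes and transcripts. The mirVana kit was used for extraction, per the labels' protocols, with RNA above a size of 200 kept and spike-ins added. The tables have RSEM's columns, per the file headers. Expected counts were deposited by the authors without normalization. TPM values were scaled by the authors over all rows, spike-ins included. The FPKM values, which the authors also deposited, were not used for a result. The build was mm10 with GENCODE M4, per the deposited descriptions. For aligner and strand setting: not given in the sources used here.

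Symbols, positions, transcript names and sequences came from GENCODE M21 on GRCm38. Exon shares are a percent of summed transcript TPM and use transcripts whose deposited length equals that in M21, a condition set after the files were seen, and need a transcript that skips the exon; 95 of 103 transcripts matched. The *Mbnl3* 36-base exon, the motif search, leading transcripts by expected counts and the backgrounds by range and over transcripts were added after the data were seen. Log values used log2(TPM + 1). Ratios exceed the spread when both libraries give one sign and the mean is above 2 SD, a description and not a test with n = 2. The interval of the *Celf1* count ratio is exact binomial at 95%, scaled by the totals of gene reads. A count of 0 was taken to allow 3 counts. All 10 regulators are named. The regulators, lists and markers were chosen with earlier results of these data known. The detection call and the exon share were tested on values set by hand with known answers, and the other steps were not tested in this way. Tables were read with pandas 2.3.3 and numpy 2.4.6 under Python 3.11.15, intervals came from scipy 1.17.1, and plots from matplotlib 3.10.9.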

Additional observations from a re-analysis of the deposited data

How the results depend on the processing

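Of 85 values recomputed under alternatives other than leaving out a library, for 37 results, 77 stayed within 1 SD of the libraries (1.5 times for the count of regulators detected) and 8 moved by more. That SD is wide for most results, so staying within it allows large shifts. The mean log2 ratio of *Rbfox1* to *Rbfox2* changed sign, 1.10 as reported and −0.80 from expected counts, and the *Rbfox1* share of its family was 62.9% and 41.2%. With TPM over genes only, *Mbnl1* averaged 89.9 TPM in place of 83.5. The log2 ratio of *Mbnl2* to *Mbnl3*, 3.59, was 5.35 with a pseudocount of 0.1 and 7.06 from expected counts. From expected counts the share of Rbfox1-202 was 48.9% in place of 77.3%, that of Ptbp1-206 was 36.4% in place of 30.7%, and that of *Ptbp1* in its family was 74.7% in place of 83.4%. With posterior mean TPM, Ptbp1-206 held 26.0% and the *Ptbp1* 34-base exon was in 99.0%. The cause was not tested, except that expected counts leave out the length adjustment by construction.

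The regulators detected in both libraries numbered 8 at a TPM of 0.1 with 1 count and 7 at a TPM of 5 with 10 counts; 7 passed with the credible bound. Without replicate 1, 10 were detected, and without replicate 2, 7. With 2 libraries, leaving out either gives the value of the other, so the levels of 9 regulators, the orders of *Celf1* and *Celf2* and of *Rbfox1* and *Rbfox2*, and the leading transcripts of *Mbnl1*, *Celf2* and *Ptbp1* rest on which library is read. No paired analysis was possible because there is 1 group. By expected counts in place of TPM, the leading transcripts of their genes were Mbnl1-201, Celf1-203 and Ptbp1-206 in replicate 2 and Rbfox1-201 in replicate 1.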
